A study of Arabidopsis thaliana with 2 samples.

Results

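The genes described here are the DNA methyltransferase genes of Arabidopsis thaliana, MET1 (AT5G49160), CMT1 (AT1G80740), CMT2 (AT4G19020), CMT3 (AT1G69770), DRM1 (AT5G15380), DRM2 (AT5G14620) and DRM3 (AT3G17310), together with the chromatin remodeller gene DDM1 (AT5G66750). They were chosen by locus, with earlier results of these data known. All 8 were found among the 27432 nuclear protein-coding genes of the gene table. They overlap 12 of the 11916 nuclear bins of 10 kb: MET1, CMT1, DRM1 and DRM2 lie within 1 bin each, and the other 4 genes span 2 bins each. Up to 10 bins on either side were taken as context.

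The data come from MNase-seq, in which micrococcal nuclease digests the DNA between nucleosomes and the protected DNA is sequenced. There is 1 library from wild-type leaves and 1 from leaves of the chr5 mutant, both from untreated plants grown on plates at 22 °C. CHR5 encodes a CHD1-type chromatin remodeller. The labels give no allele, accession, plant age or pooling, and protected DNA carries no expression, so the leaf label could not be checked against markers.

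Plants methylate cytosines in 3 sequence contexts. MET1 copies CG methylation after DNA replication. The chromomethylases bind nucleosomes that carry histone H3 lysine 9 methylation: CMT3 maintains CHG methylation and CMT2 acts mainly on CHH sites of heterochromatin. DRM2 places new methylation at sites targeted by small RNAs, and DRM3 is a catalytically altered relative that assists it. DDM1 moves nucleosomes so that the methyltransferases can reach heterochromatin. The values below concern nucleosome-protected DNA at the loci of these genes, not their transcripts or the methylation they produce.

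Counts were scaled to counts per 1000000 nuclear counts (CPM), from nuclear totals of 99392770 in the wild type and 102412872 in chr5, and every fold is chr5 over wild type. With 1 library per genotype there is no replicate check and no test. The exact 95% intervals given in parentheses take in counting error alone, and are too narrow where PCR copies of a molecule were counted. The log2 ratio of the 11735 analysed bins had a median of 0.015 and an SD of 0.064, and folds from 0.907 to 1.08 took in their central 95%. At CHR5 itself (AT2G13370) the fold was 0.977 (0.956 to 0.999). Its log2 ratio was -0.033, where the median of the 20 bins around it was lower, at -0.061. This does not check the label, since a bin of 10 kb can keep its counts when a gene within it is mutated.

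The loci of the 8 genes carried nearly the same amount of protected DNA in both libraries, with CMT3 as the exception. Of the 12 member bins, 1 was 1.1-fold or more above the wild type, where 0.81% of all analysed bins were, and 0 were as far below it, where 2.65% were. That bin holds part of CMT3. Both shares also take in bins near the centromeres, whereas all 12 member bins lie in the chromosome arms. The median fold of analysed bins was 1.015 in the arms and 0.963 near the centromeres. The central range of folds, taken as above, ran from 0.946 to 1.082 in the arms and from 0.851 to 1.059 near the centromeres. Low folds were thus rarer in the arms, and 2.65% is not the share for them. The high end lay further up in the arms, and the 0.81% was not computed for them alone either. Summed over the bins of each gene, 7 of the 8 folds were above 1, but 5 of 8 when the median bin was set to a ratio of 1, where CMT2 and DRM2 turned. The median log2 ratio of the 8 genes was 0.030, beside 0.020 for all protein-coding genes measured in the same way and 0.015 for all bins. Without CMT3 the other 7 genes ranged in fold from 0.976 to 1.038.

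**Figure D1:**
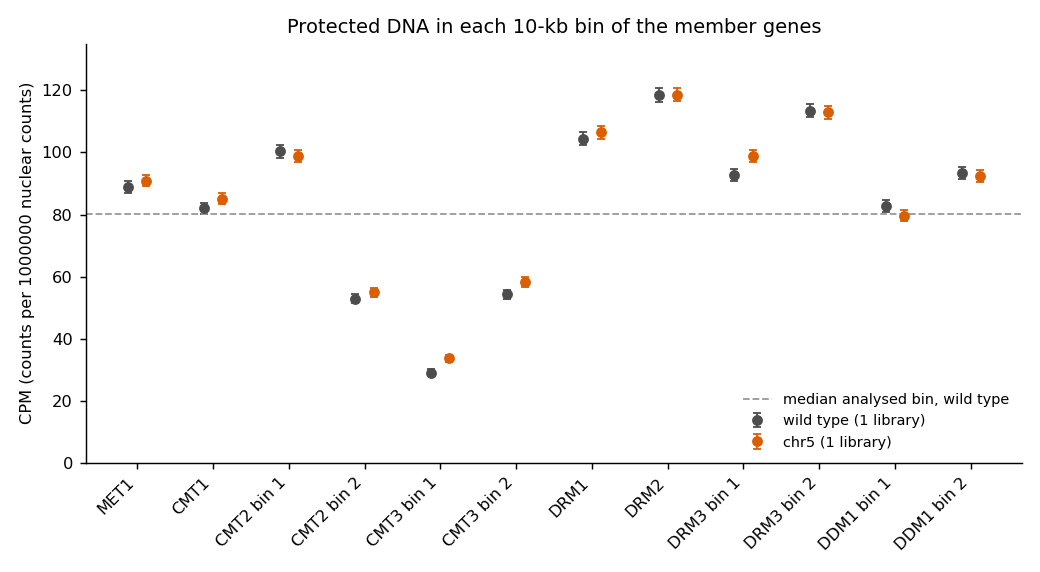
Scaled counts (counts per 1000000 nuclear counts, CPM) in each of the 12 bins of 10 kb that the 8 genes overlap, for the wild-type and the chr5 library, with exact 95% Poisson intervals; the dashed line is the median analysed bin of the wild type. The first CMT3 bin is the lowest in both libraries, at 29.0 in the wild type and 33.6 in chr5, and DRM2 is the highest at 119.

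CG methylation is maintained by MET1. Its bin (chromosome 5, 19930001 to 19940000, 63.6% of which is MET1) had a wild-type count of 8837 and a chr5 count of 9313, or 88.9 and 90.9 CPM. The fold was 1.023 (0.993 to 1.053), an interval that contains 1. The 20 bins around it had a median log2 ratio of 0.029, against 0.032 for MET1, so the gene stood 0.0032 above its surroundings on the log2 scale. MET1 shares its bin with 1 other gene, AT5G49170.

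The chromomethylase genes differed most among themselves. CMT1, whose product is considered nonessential, lies in 1 bin near the end of chromosome 1 (chromosome 1, 30340001 to 30350000) with 8153 wild-type and 8719 chr5 counts, 82.0 and 85.1 CPM. Its fold was 1.038 (1.007 to 1.070). The locus stood 0.049 (log2) above the median of its 18 flanking bins and was higher than 17 of them. It was the second highest of the 8 genes in fold, at percentile 80.3 of all protein-coding genes.

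CMT2 spans 2 bins on opposite sides of a fold of 1. The first (chromosome 4, 10410001 to 10420000) holds 81.5% of the gene and was at 100.3 and 98.9 CPM in the wild type and chr5, from counts of 9973 and 10126, which is a fold of 0.985 (0.958 to 1.013). The second (chromosome 4, 10420001 to 10430000) holds the rest with the aquaporin gene NLM1 (AT4G19030) and small genes, and was at 52.8 and 54.9 CPM, from counts of 5243 and 5627, a fold of 1.042 (1.003 to 1.082). Together the bins gave a fold of 1.005 (0.983 to 1.027). The direction for CMT2 therefore depends on which bin is read: by its midpoint bin it was 0.985.

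CMT3 had the lowest level and the highest fold of the 8 genes. Its first bin (chromosome 1, 26240001 to 26250000), with 33.8% of the gene, had a wild-type count of 2880 and a chr5 count of 3444, or 29.0 and 33.6 CPM. Its second bin (chromosome 1, 26250001 to 26260000), with the other 66.2%, held 5391 and 5964 counts, or 54.2 and 58.2 CPM. Both bins were higher in chr5. The folds were 1.161 (1.104 to 1.220) and 1.074 (1.035 to 1.114), and 1.104 (1.072 to 1.137) for the bins together.

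Among all analysed bins 8 had a higher ratio than the first CMT3 bin, and among protein-coding genes 93 of 27241 had a higher one than CMT3, which puts it at percentile 99.7. The other 7 genes lay between percentiles 9.68 and 80.3. By gene, 0.433% of protein-coding genes were 1.1-fold or more higher in chr5 and 0.606% as far lower. CMT3 was past this fold only narrowly: it was at 1.093 when the median bin was set to a ratio of 1, at 1.092 when each bin was weighted by the bases of the gene it holds, and at 1.074 by its second bin alone, which is the bin of its midpoint. The first bin was past 1.1-fold in each of the scalings tried. It is not counted when bins under 0.5 times the median level are left out.

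Most of the first CMT3 bin lies outside protein-coding genes, which cover 27.3% of it, CMT3 18.8% and AT1G69760 the rest. In the second bin they cover 49.0%, CMT3 36.9% and the homeobox gene ATHB13 (AT1G69780) 1213 bases. No annotated pseudogene lies in either. The fold was larger in the gene-poor bin, by a factor of 1.081 (1.016 to 1.150) over the second.

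**Figure D2:**
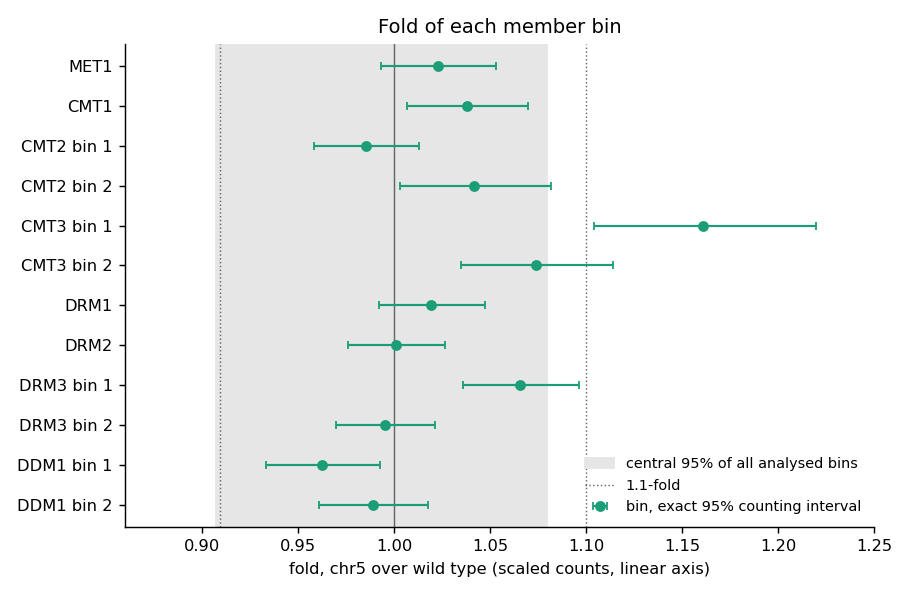
Fold of chr5 over wild type for each of the 12 member bins (points, linear axis) with exact 95% counting intervals; the grey band spans the central 95% of all analysed bins, 0.907 to 1.08, and the dotted lines mark 1.1-fold either way. The first CMT3 bin, at 1.161, lies to the right of the band, and the other 11 bins lie inside it.

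The DRM genes lay in bins with high counts. DRM2, the main enzyme of RNA-directed methylation, had 11780 wild-type and 12149 chr5 counts in its bin (chromosome 5, 4710001 to 4720000), 119 CPM in both libraries, and a fold of 1.001 (0.976 to 1.027). DRM1, its close relative, had 10382 and 10903 counts (chromosome 5, 4990001 to 5000000), 104 and 106 CPM, and a fold of 1.019 (0.992 to 1.047). Neither stood apart from its surroundings: the log2 ratio less the median of the 20 flanking bins was -0.022 for DRM2 and -0.0083 for DRM1. The DRM2 bin is shared with AT5G14610, which covers 4514 bases of it against 3600 for DRM2.

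DRM3 spans 2 bins with unlike folds. The first (chromosome 3, 5900001 to 5910000) was at 92.7 CPM in the wild type and 98.7 in chr5, from counts of 9209 and 10112, which is a fold of 1.066 (1.036 to 1.096), and holds 24.2% of the gene, beside EMB2786 (AT3G17300), AT3G17280 and the pseudogene AT3G17290. The second (chromosome 3, 5910001 to 5920000), with 75.8% of the gene, had 113 CPM in both, counts of 11278 and 11563, and a fold of 0.995 (0.969 to 1.021). The first exceeded the second by a factor of 1.071 (1.031 to 1.113). The gene as a whole was at 1.027 (1.007 to 1.047) and by its midpoint bin, the second, at 0.995, so the side of 1 on which DRM3 falls depends on the bin that is read.

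DDM1 was the member with the lowest fold, and the only one of the 8 below 1. Its first bin (chromosome 5, 26640001 to 26650000, 25.7% of the gene) held 8221 and 8153 counts, or 82.7 and 79.6 CPM, a fold of 0.962 (0.933 to 0.993). Its second (chromosome 5, 26650001 to 26660000, 74.3% of the gene) held 9284 and 9458 counts, or 93.4 and 92.4 CPM, a fold of 0.989 (0.961 to 1.018). Both bins were lower in chr5, and together they gave 0.976 (0.956 to 0.997), at percentile 9.68 of protein-coding genes. The surroundings were low as well, with a median log2 ratio of -0.014 over 20 flanking bins, and the difference of DDM1 from them was -0.020 (log2). Other genes fill much of these bins, among them IDD1 (AT5G66730), a transcription factor gene, and SDH1-1 (AT5G66760), a mitochondrial succinate dehydrogenase subunit gene.

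Counting intervals that left out a fold of 1 were common in these libraries. Of the 12 bins, 5 had an interval above 1, where 24.6% of all bins did, and 1 had one below it, where 16.2% did. These shares of all bins also take in the bins near the centromeres, where folds were lower than in the arms. Of the 8 genes, CMT3, CMT1 and DRM3 had an interval above 1 and DDM1 one below, against 28.4% and 8.22% of protein-coding genes. Such an interval separates these 2 libraries in that bin or gene, and says nothing of the genotypes.

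The order of the loci by level was the same in both libraries. Per bin of 10 kb in the wild type it ran from DRM2 at 119 CPM through DRM1 at 104, DRM3 at 103, MET1 at 88.9, DDM1 at 88.1, CMT1 at 82.0 and CMT2 at 76.5 to CMT3 at 41.6. The Poisson intervals of DRM1 and DRM3 overlapped in both libraries, those of MET1 and DDM1 in the wild type only, and those of DDM1 and CMT1 in chr5 only. The highest gene exceeded the lowest 2.85 times in the wild type and 2.58 times in chr5. These are levels of bins, which also hold 31 other annotated genes, 25 of them protein-coding.

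In the chromosome arms the level of a bin was higher where more of it is gene. Protein-coding genes covered from 27.3% of the first CMT3 bin to 99.0% of the first CMT2 bin, and across the 12 member bins the wild-type level had a Spearman's rho of 0.86 with this coverage. Across the 158 flanking bins rho was 0.73, and across the 9853 analysed bins of the chromosome arms it was 0.67. It was -0.34 in the analysed bins within 2 Mb of the approximate centromeres and 0.34 over all analysed bins. All bins share the 2 libraries and neighbouring bins lie on the same stretch of chromosome, so these are descriptions. All 12 member bins lie in the arms, more than 2 Mb from the approximate centromeres.

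The ratio of chr5 to wild type also went with the level. Its Spearman's rho with the mean level was -0.52 over the 12 member bins, -0.36 over the flanking bins and -0.43 over all analysed bins. In 3 of the 4 genes that span 2 bins, CMT2, CMT3 and DRM3, the bin with the lower level had the higher ratio, and in DDM1 it did not. The first CMT3 bin is in the lowest decile of bins by level, where the median log2 ratio was 0.052 and 5.79% of bins were 1.1-fold or more higher. Its own log2 ratio of 0.21 was above the central 95% of that decile, which ended at 0.16.

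The first CMT3 bin, which had the highest ratio of the 12 member bins, was also set beside bins of its own level. A bin picked as the highest tends to rank high, so this rank and those given above are descriptions. The 128 bins within 1.1 times the mean level of the first CMT3 bin include the bin itself. They were drawn from arms and centromere regions alike. Their median fold was 1.047, 17.2% were 1.1-fold or more higher, and 2 had a higher ratio than the first CMT3 bin. The second CMT3 bin, at a log2 ratio of 0.10, was inside the central 95% of its decile, which ended at 0.12. The first DRM3 bin, at 0.092, was the other member bin above that range, which ended at 0.077 for its decile. The remaining 10 bins were inside. The part of the level in these ratios was not tested.

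**Figure D3:**
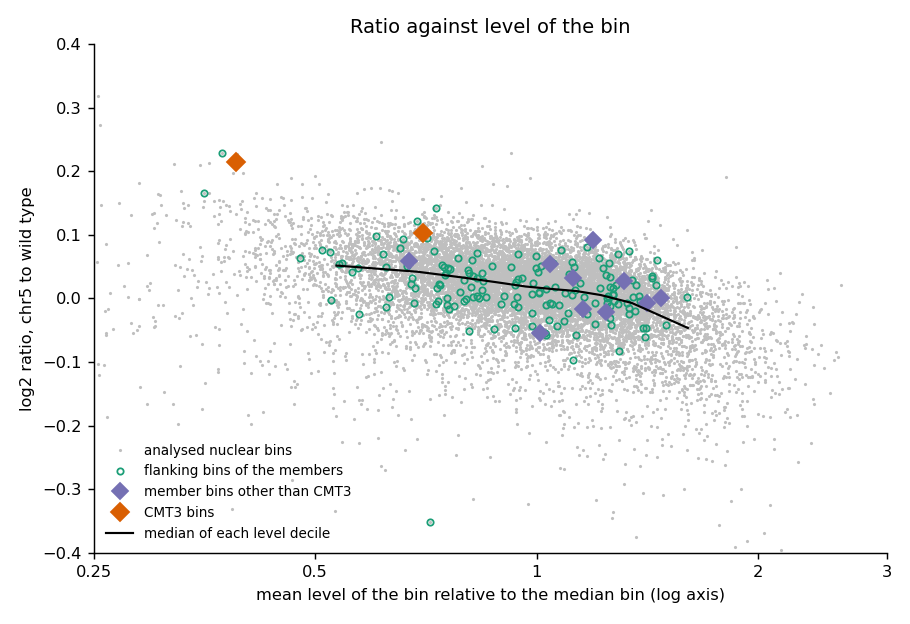
The log2 ratio of chr5 to wild type against the mean level of each analysed bin relative to the median bin (log axis), with the member bins and their flanking bins marked; the line joins the medians of the level deciles, and bins outside the axes are not drawn. The medians fall from 0.052 in the lowest decile to -0.046 in the highest, and the first CMT3 bin lies above them at 0.21.

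Around the members the profiles of both libraries ran in parallel, with a Pearson correlation of log2 counts between 0.982 in the CMT2 window and 0.998 in the DRM2 window over 19 to 22 bins each. The same correlation was 0.995 over the analysed bins of the arms and 0.993 over all analysed bins. The difference of a gene from its flanking bins ranged from -0.022 for DRM2 to 0.11 for CMT3 (log2), with 4 of 8 genes above 0 and a median of -0.0026, which was 0.0037 with 5 bins on either side. CMT3 was higher than 19 of its 20 flanking bins. Of the 158 flanking bins, 3 (1.90%) were 1.1-fold or more higher and 1 (0.633%) was as far lower, against 0.81% and 2.65% of all bins. The flanking bins lie in the arms, where the median fold of analysed bins was 1.015. The shares of all bins also take in the bins near the centromeres, with a median fold of 0.963.

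The bin that exceeded CMT3 in its own window lies 5 bins after the second CMT3 bin (chromosome 1, 26300001 to 26310000) and reaches into NRT1:2 (AT1G69850), a nitrate transporter gene, and AT1G69860. It had 2742 wild-type and 3311 chr5 counts and a fold of 1.172 (1.114 to 1.233). Like the first CMT3 bin it is poor in genes, with 10.6% coding coverage, and at a low level of 27.6 CPM. The 4 bins between it and CMT3 were between log2 ratios of -0.010 and 0.049, so the high ratios did not form 1 continuous stretch. The lowest bin of this window (chromosome 1, 26140001 to 26150000, with AGL94 and AT1G69550) was at 0.989 (0.954 to 1.025).

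The other bins past 1.1-fold were in the windows of CMT2 and DRM1. In the CMT2 window neighbouring bins went opposite ways. The bin chromosome 4, 10510001 to 10520000, with no annotated gene, had 2653 and 3068 counts and a fold of 1.122 (1.065 to 1.183), and the next (chromosome 4, 10520001 to 10530000) had counts of 6396 and 5166, a fold of 0.784 (0.756 to 0.813). The latter holds CYP707A1 (AT4G19230), which encodes an enzyme that breaks down abscisic acid, and AT4G19240. In the DRM1 window the bin of the transcription factor gene MYB16 (AT5G15310) and AT5G15320 (chromosome 5, 4970001 to 4980000) had 5529 and 6288 counts and a fold of 1.104 (1.064 to 1.145).

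In the remaining windows the flanking bins stayed within 1.1-fold. The highest was 1.089 (1.049 to 1.130) in the MET1 window, in the bin of TBL4 and the flavonol regulator gene MYB111, followed by 1.070 (1.028 to 1.114) beside DDM1 at AT5G66820 and 1.053 (1.015 to 1.092) in the DRM3 window at BSH, a SWI/SNF subunit gene. The next was 1.04995 (1.009 to 1.092) in the DRM2 window at AT5G14700, and the CMT1 window was the lowest of these at 1.042 (1.016 to 1.069), at the proton pump gene HA9. The lowest bin was 0.935 (0.908 to 0.963) in the DDM1 window, in the bin of ABA1, an abscisic acid synthesis gene. The lowest bins of the MET1 window (LPA66 and HCT), the DRM3 window (HCF107), the DRM1 window (CLPB3), the CMT1 window (NHO1) and the DRM2 window (SK13) were at 0.960, 0.961, 0.968, 0.971 and 0.972. The window of DDM1 had the lowest median fold, 0.990, and those of CMT3 and DRM1 the highest, 1.025 each.

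**Figure D4:**
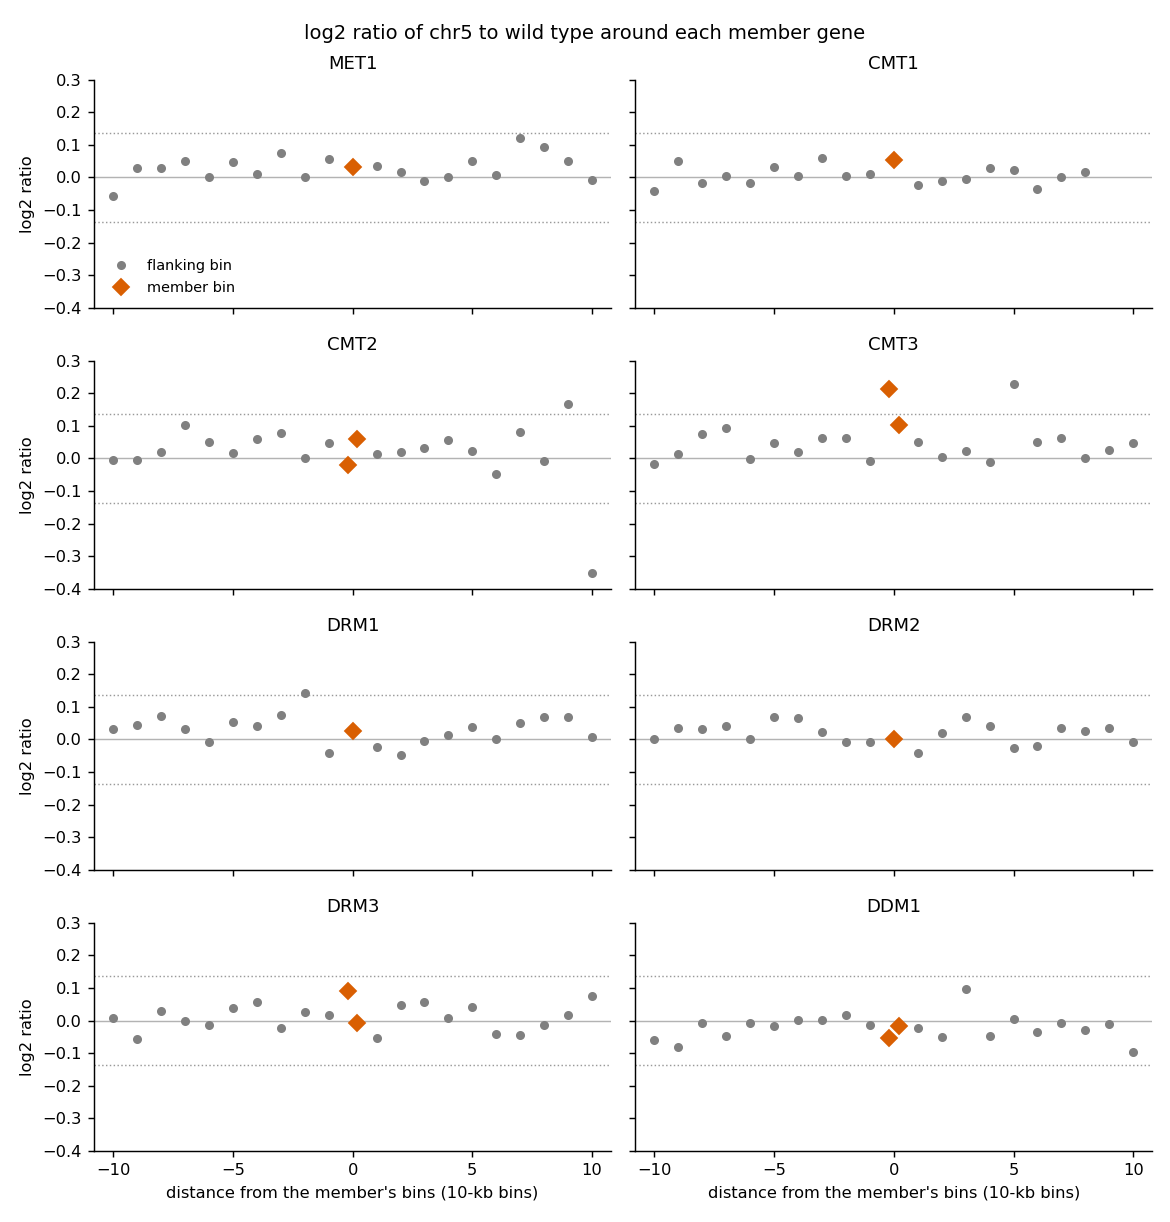
The log2 ratio of chr5 to wild type in the bins of each member gene (diamonds) and in up to 10 bins of 10 kb on either side (circles); dotted lines mark 1.1-fold. The first CMT3 bin, at 0.21, and the bin at offset 5 to the right of the gene, at 0.23, stand above the rest of their window, and the CMT2 window ends in a bin at 0.17 followed by one at -0.35.

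The other genes of the methylation pathway lay closer to a fold of 1 than CMT3, as nearly all protein-coding genes did. The list holds 35 further genes: 4 methyltransferase homologues, 17 genes of RNA-directed DNA methylation, 10 of histone H3 lysine 9 methylation and methylation maintenance, and 4 demethylase genes. All 35 passed the count filter. By the summed bins of each gene, 0 were 1.1-fold or more higher or lower, where 0.433% and 0.606% of protein-coding genes were, and the median log2 ratio was 0.017. The intervals of 14 genes lay above 1 and those of 2 below, while 19 contained 1, beside 28.4% of protein-coding genes with an interval above 1 and 8.22% with one below.

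The methyltransferase homologues had a median fold of 1.036. MEE57 (AT4G13610), a MET1-type gene, was the highest of them at 1.046 (1.020 to 1.073), with 11629 wild-type and 12539 chr5 counts over 2 bins. DNMT2 (AT5G25480) and DMT2 (AT4G14140) were at 1.038 (1.014 to 1.062) and 1.034 (1.012 to 1.058). AT4G08990, which lies within 2 Mb of the centromere of chromosome 4, was at 0.999 (0.976 to 1.021). MEE57, DMT2 and AT4G08990 are close copies, so how reads were divided among them is uncertain.

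The 17 genes of RNA-directed methylation had a median fold of 1.005 and ranged from 0.970 to 1.080. AGO9 (AT5G21150), an Argonaute gene known for its role in ovules, was the highest of the 35, with counts of 7823 and 8702 and a fold of 1.080 (1.047 to 1.113). DRD1 (AT2G16390), a SNF2-type remodeller gene of this pathway, was at 1.045 (1.020 to 1.069) and NRPD2A (AT3G23780), the shared second subunit of RNA polymerases IV and V, at 1.043 (1.023 to 1.063). IDN2 (AT3G48670), which encodes an RNA-binding protein, was the lowest of the 35 with counts of 10035 and 10034 and a fold of 0.970 (0.944 to 0.998).

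The 10 genes of lysine 9 methylation and maintenance ranged from 0.976 to 1.039, with the histone methyltransferase gene SUVH5 (AT2G35160) the lowest at 0.976 (0.951 to 1.003). The 4 demethylase genes, whose enzymes remove 5-methylcytosine, had a median fold of 1.008. The lowest of them were DME (AT5G04560), which acts in the central cell of the ovule, at 0.977 (0.958 to 0.995), and DML1 (AT2G36490), also known as ROS1, at 0.985 (0.966 to 1.003). The 4 demethylase genes, from 0.977 to 1.034, lay within the range of the 17 genes of RNA-directed methylation, 0.970 to 1.080.

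**Figure D5:**
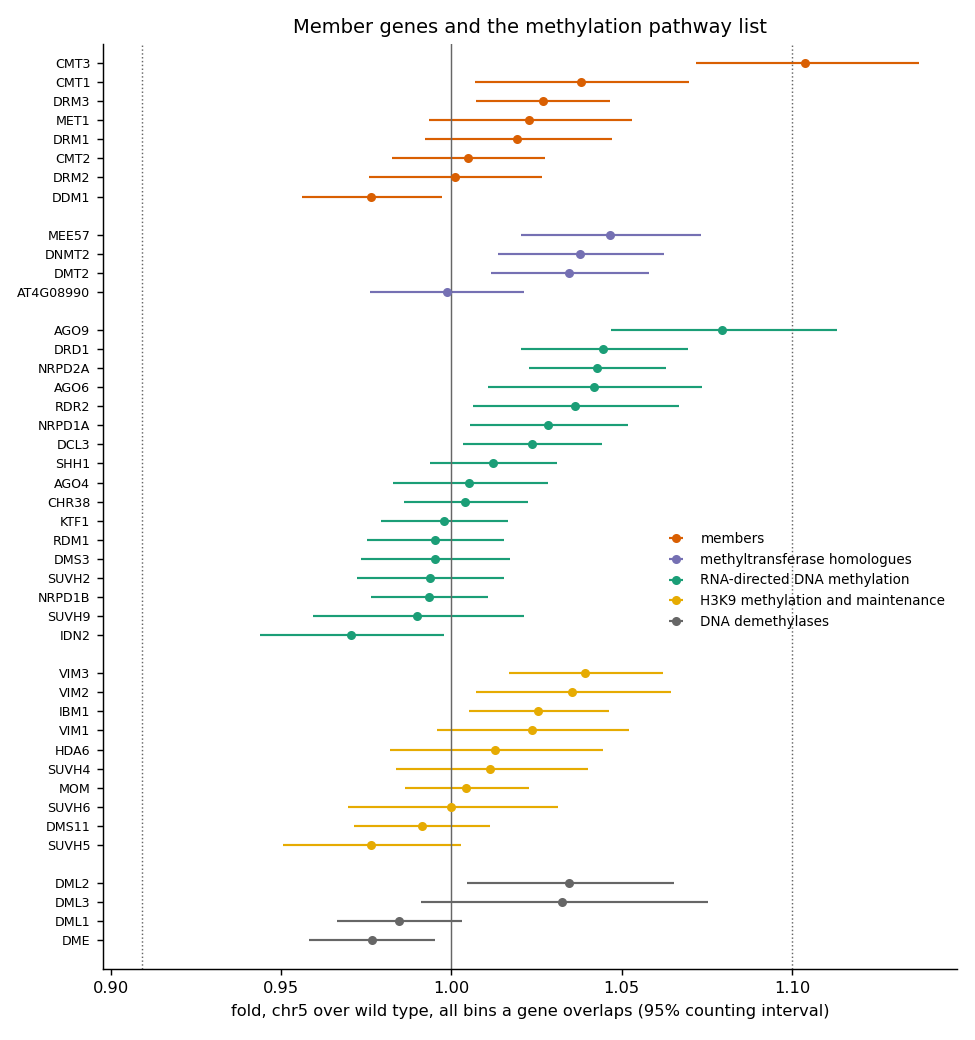
Fold of chr5 over wild type (linear axis), summed over all bins a gene overlaps, for the 8 members and the 35 genes of the pathway list by group, with exact 95% counting intervals; dotted lines mark 1.1-fold. CMT3, at 1.104, is the 1 gene past the upper line, followed by AGO9 at 1.080, and DDM1 at 0.976 and IDN2 at 0.970 are among the lowest.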

How the data were processed

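Per the labels' protocols, chromatin was digested with MNase and standard genomic DNA libraries were made; BWA 0.7.5a and bedtools are named, without roles, in the submitters' processing notes. Sources used here give no genome build and do not say how duplicates or multiply matching reads were treated. The authors deposited whole-number counts per 10-kb bin, not normalized, 1 table per library.

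Gene positions came from RefSeq (assembly TAIR10.1). Coordinates printed are those of the deposited bins, counted from 1. As a check, coding coverage and wild-type level, each less a running median of 21 bins, had a rho of 0.45 to 0.54 by chromosome with no shift and at most 0.11 at shifts of up to 4 bins. Symbols are those of the table, except DDM1, which it lists as CHR1.

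Counts were scaled to counts per 1000000 nuclear counts (CPM); log2 ratios used a pseudocount of 1. Bins under 0.25 times the median level were left out (181 of 11916), and none of them was a member bin. Fold intervals are exact conditional binomial ones. Approximate centromeres were set at 15, 3.6, 14, 4 and 12 Mb on chromosomes 1 to 5. Besides the members and their bins, the text names flanking bins past 1.1-fold, the highest and lowest bin of each window, and the 4 highest and 4 lowest pathway genes; DNMT2, DMT2 and AT4G08990 were added after their values were seen. Members and lists were chosen with earlier results of these data known. Scripts (Python 3.11.15, numpy 2.4.6, pandas 2.3.3, scipy 1.17.1, matplotlib 3.10.9) were tested on simulated data. Alternatives changed the scaling, filter, pseudocount, gene-to-bin assignment, threshold and context width. GC content was not computed.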

Additional observations from a re-analysis of the deposited data

How the results depend on the processing

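The number of member bins past 1.1-fold was 1 and stayed 1 with the median bin set to a ratio of 1, with organelles in the totals and with no filter. It was 0 with bins limited to between 0.5 and 4 times the median level, which leaves out the first CMT3 bin, and 0 with the midpoint bin of each gene alone, which also leaves it out. By construction it was 3 at a threshold of 5% and 0 at a threshold of 25%. The median log2 ratio of the 8 genes was 0.030 and fell to 0.015 with the median bin set to a ratio of 1 and to 0.014 by midpoint bins. The median difference from the flanking bins, -0.0026, was 0.0037 with 5 bins on either side. Both are smaller in size than 0.012, the log2 counting half-interval of the 8 genes pooled. That is not an interval of this median, and it leaves out the counting error of the flanking bins. The cause of the change was not tested. The median of the pathway list, 0.017, was 0.0027 with the median bin set to a ratio of 1 and 0.031 with bins weighted by gene bases. With the median bin set to a ratio of 1, CMT2 was at 0.995 and DRM2 at 0.991. By midpoint bins CMT2 was at 0.985 and DRM3 at 0.995, and with weighted bins CMT2 was at 0.991. The other 43 gene folds under these alternatives kept their side of 1 and moved by less than their counting interval. The fold of CMT3 ranged from 1.074 to 1.104. With 1 library per genotype the spread between preparations was not measured, and the intervals cover counting error alone.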
